A study of Mus musculus with 26 samples.

Results

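Mouse brown preadipocytes that lacked the insulin receptor (IR) and the IGF1 receptor and re-expressed different human IR constructs were compared for the 10 genes that encode the chains of the fibrillar collagens, among 52962 genes in the count table and 15402 genes that passed a filter on low counts. The members were given as a list of gene symbols, chains of collagen types I, II, III, V, XI, and XXVII, namely Col1a1, Col1a2, Col2a1, Col3a1, Col5a1, Col5a2, Col5a3, Col11a1, Col11a2, and Col27a1, and all 10 passed the filter. RNA-seq was performed on 26 libraries in 9 groups, with 3 libraries per group except for 2 in insulin-stimulated ∆CT cells. All lines derived from preadipocytes of newborn mice with floxed Insr and Igf1r alleles that were immortalized with SV40 T antigen and treated with adenoviral GFP-Cre, so the receptor lines and their control shared the double deletion (DKO). Onto this background, a retroviral vector with hygromycin selection delivered FLAG-tagged receptors, namely the full-length B isoform of human IR (IR), a kinase-dead IR with a substitution in the kinase domain (K1030R), an IR without the C-terminal 79 amino acids (∆CT), or a receptor cut off after the first 36 residues on the cytoplasmic side of the membrane, which leaves out the kinase domain and everything beyond it (JMO). Cells were serum-starved for 6 h and collected without stimulation (basal) or after 15 min with 100 nM insulin, and DKO cells were sequenced only in the basal state. Each construct was represented by a single selected cell line, and nothing in the labels says that the libraries of a group came from separate cultures, so the p-values measure the spread between these libraries, which may be technical, and a difference between lines cannot be told apart from a difference between selected cell populations.

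Fibrillar collagens are secreted as long triple-helical molecules whose propeptides are cut off outside the cell, after which the molecules pack side by side into banded fibrils. Types I and III make up most of the fibril mass in soft connective tissue, while the minor types V and XI sit inside the fibrils and control where they start and how thick they become. Type II with type XI is typical of cartilage, and in fat depots preadipocytes and fibroblasts are the main cells that make types I, III, and V. Because chains assemble in fixed combinations, such as a pair of α1 chains with an α2 chain in type I, the balance among the transcripts is of interest as well as their level.

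Promoter sequences are shown for 4 members that were higher in IR, K1030R, and ∆CT cells than in DKO cells, as context for genes that moved together. RefSeq start sites on GRCm38.p6 were available for 7 of the 10 members (Col1a2, Col3a1, Col5a1, Col5a3, Col11a1, Col11a2, and Col27a1). Each line gives the 150 bases upstream of the RefSeq start on the plus strand, 5′ to 3′, with the searched motifs in capitals. The windows of Col1a2 and of Col27a1, which is not printed, lie inside the gene spans given below, which begin further upstream. For these 2 genes the window is thus upstream of the RefSeq start only. These were the CCAAT box, which reads ATTGG when it lies on the other strand, a TATA box spelled TATAAA, and the GC box spelled GGGCGG.
Col1a2 (chr6:4505468-4505617): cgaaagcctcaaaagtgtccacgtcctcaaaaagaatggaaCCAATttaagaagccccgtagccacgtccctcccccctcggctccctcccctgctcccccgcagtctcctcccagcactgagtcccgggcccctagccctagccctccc
Col5a1 (chr2:27886275-27886424): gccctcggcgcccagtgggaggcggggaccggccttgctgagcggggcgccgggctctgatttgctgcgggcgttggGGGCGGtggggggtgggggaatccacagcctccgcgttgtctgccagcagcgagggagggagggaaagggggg
Col3a1 (chr1:45311388-45311537): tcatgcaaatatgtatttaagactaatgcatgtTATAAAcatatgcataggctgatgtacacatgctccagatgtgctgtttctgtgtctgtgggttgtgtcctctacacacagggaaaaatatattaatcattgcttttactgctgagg
Col11a1 (chr3:114030390-114030539): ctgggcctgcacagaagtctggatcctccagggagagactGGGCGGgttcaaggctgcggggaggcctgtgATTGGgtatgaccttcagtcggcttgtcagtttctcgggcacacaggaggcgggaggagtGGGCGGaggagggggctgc
Matches were sought on both strands and none overlapped. CCAAT was found in 3 of the 7 members' windows (Col1a2, Col5a3, and Col11a1) and in 24.5% of 32851 promoter windows of the same length. GGGCGG was found in 5 (Col5a1, Col5a3, Col11a1, Col11a2, and Col27a1) and in 28.6% of all windows, and TATAAA in 2 (Col3a1 and Col11a2) and in 7.6%. No motif was present in all 4 windows printed here, and the matches are descriptions of letters, not of factor binding.

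The libraries held between 17228982 and 24694828 assigned counts; levels below are CPM (counts relative to library size) scaled with TMM factors, which ranged from 0.966 to 1.05. The members together took 0.82% to 0.871% of all counts in DKO cells. The mouse Insr row, which checks the labels, stood at 22.3 to 24.8 CPM in DKO libraries and at 65.9 to 81.8 CPM in the basal libraries of the 4 receptor lines, and how far reads from the human constructs entered that row was not tested. Igf1r read 24.7 to 28.6 CPM in DKO cells against 29.7 to 35.7 CPM in the basal receptor lines, so both genes held counts in DKO cells. The paper reports neither receptor in DKO cells, by qPCR or by immunoblot. Counts per gene do not show which exons the reads came from, so the completeness of the deletion was not tested here. Among preadipocyte markers, Pdgfra (158 to 293 CPM), Pdgfrb (533 to 639 CPM), and Vim (1167 to 1894 CPM) were high in every library. Thy1 (5.87 to 29.8 CPM), Ly6a (2.28 to 49.2 CPM), and Cd34 (2.92 to 15.6 CPM) were low and varied more. The brown preadipocyte factor Ebf2 (0.0464 to 0.414 CPM) and Zfp423 (at most 0.284 CPM, at 0 in 7 libraries) did not pass the filter. Ucp1 was at 0 in 25 of 26 libraries. Adipoq was at 0 in 23.

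The major fibrillar chains, those of types I and III, were higher in IR, K1030R, and ∆CT cells than in DKO cells. Col1a1 (ENSMUSG00000001506, chr11:94936224-94953042, plus strand, GRCm38), which encodes the α1 chain of type I collagen, read 3161, 3212, and 3420 CPM in DKO cells, 7653, 7357, and 6746 for IR cells, 5913, 6286, and 6098 for K1030R cells, 6524, 6099, and 6455 for ∆CT cells, and 3706, 3752, and 3748 for JMO cells. No library of the first 3 receptor lines overlapped with those of DKO or JMO cells, and the K1030R and ∆CT ranges overlapped with each other. Relative to DKO cells, the level was 2.22-fold in IR cells (log2 fold change 1.15 ± 0.0402 (SE), n = 3 per group, adjusted p = 3.24e-19 in edgeR's quasi-likelihood test), 1.87-fold in K1030R cells (adjusted p = 1.27e-16), and 1.95-fold in ∆CT cells (adjusted p = 2.41e-17). In JMO cells it was 1.14-fold (adjusted p = 0.000337), so the JMO line moved in the same direction by a small step.

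Col1a2 (ENSMUSG00000029661, chr6:4504814-4541544, plus strand), the gene for the α2 chain of the same molecule, read 2430, 2453, and 2538 CPM in DKO cells, 5486, 5429, and 5119 for IR cells, 4174, 4366, and 4213 for K1030R cells, 4546, 4389, and 4714 for ∆CT cells, and 2567, 2594, and 2632 for JMO cells. The 5 lines formed 5 ranges that did not overlap, in the order IR, ∆CT, K1030R, JMO, and DKO. The fold over DKO was 2.16 for IR cells (log2 fold change 1.11 ± 0.0281 (SE), adjusted p = 8.37e-27), 1.72 for K1030R cells, and 1.84 for ∆CT cells. For JMO cells it was 1.05 with an adjusted p of 0.0465, a call that was lost in 21 of 37 alternative settings, where the adjusted p ran up to 0.215.

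Col3a1 (ENSMUSG00000026043, chr1:45311538-45349706, plus strand), whose product forms homotrimers that copolymerize with type I collagen, separated all 5 lines. It read 1046, 1068, and 1134 CPM in DKO cells, 2889, 2951, and 2808 for IR cells, 1509, 1666, and 1581 for K1030R cells, 1943, 1866, and 2103 for ∆CT cells, and 723, 705, and 731 for JMO cells. None of these ranges overlapped, and JMO cells lay below DKO cells. The level was 2.66-fold over DKO in IR cells (log2 fold change 1.41 ± 0.0364 (SE), adjusted p = 1.36e-26), 1.46-fold in K1030R cells (adjusted p = 7.46e-15), and 1.82-fold in ∆CT cells (adjusted p = 2.22e-20). In JMO cells it was 0.664-fold (log2 fold change -0.59 ± 0.036 (SE), adjusted p = 4.15e-15).

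The chains of type V collagen, which nucleates type I fibrils, did not move as a unit. Col5a1 (chr2:27886425-28039514, plus strand), the gene for its obligatory α1 chain, read 343, 349, and 361 CPM in DKO cells, 649, 628, and 619 for IR cells, 585, 575, and 587 for K1030R cells, 596, 592, and 598 for ∆CT cells, and 346, 346, and 348 for JMO cells. The JMO values lay inside the DKO range, and the other lines lay above both. The log2 fold change over DKO was 0.85 ± 0.0272 (SE) for IR cells (adjusted p = 8.21e-24), 0.73 for K1030R cells, 0.76 for ∆CT cells, and -0.02 for JMO cells (95% interval -0.07 to 0.04, adjusted p = 0.69). Col5a1 overlaps the antisense gene 2810430I11Rik in 1 exon, and that gene held 29 to 69 counts per library.

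Col5a2 (chr1:45374321-45503282, minus strand), which encodes the α2 chain of type V, was the abundant member that was also clearly higher in JMO cells. It read 943, 924, and 941 CPM in DKO cells, 1484, 1458, and 1425 for IR cells, 1495, 1442, and 1484 for K1030R cells, 1514, 1510, and 1444 for ∆CT cells, and 1368, 1357, and 1318 for JMO cells. The libraries of IR, K1030R, and ∆CT cells overlapped, those of JMO cells lay just below them, and those of DKO cells were far lower. The fold over DKO was 1.55 for IR cells (log2 fold change 0.64 ± 0.0261 (SE), adjusted p = 1.28e-20), 1.57 for K1030R cells, 1.59 for ∆CT cells, and 1.44 for JMO cells (log2 fold change 0.53 ± 0.0261 (SE), adjusted p = 2.0e-17). Col5a2 and Col3a1 are neighbors on chromosome 1, transcribed toward each other across a gap of 24614 bp with 0 annotated genes between them, and in JMO cells Col5a2 was above DKO while Col3a1 was below it.

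Col5a3 (chr9:20770050-20815067, minus strand), the gene for the α3 chain of type V, was expressed at a low level. It read 4.89 to 5.37 CPM in DKO cells, 8.8 to 10.2 for IR cells, 6.28 to 8.69 for K1030R cells, 5.34 to 7.92 for ∆CT cells, and 6.95 to 7.58 for JMO cells. Its log2 fold change over DKO was 0.87 ± 0.12 (SE) for IR cells (adjusted p = 1.85e-07), 0.54 for K1030R cells (adjusted p = 0.000616), and 0.48 for JMO cells (adjusted p = 0.00217). In ∆CT cells it was 0.30 with an adjusted p of 0.0483, the ∆CT and DKO ranges overlapped, and the call was lost in 25 of 37 alternative settings, where the adjusted p ran up to 0.509.

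Col11a1 (chr3:114030540-114220718, plus strand), which encodes the α1 chain of type XI collagen and can pair with type V chains in non-cartilage tissue, had the largest fold of the abundant members. It read 198, 199, and 200 CPM in DKO cells, 819, 816, and 807 for IR cells, 452, 449, and 433 for K1030R cells, 472, 460, and 515 for ∆CT cells, and 175, 176, and 179 for JMO cells. The 5 ranges did not overlap, and JMO cells were again the lowest. The level was 4.09-fold over DKO in IR cells (log2 fold change 2.03 ± 0.0348 (SE), adjusted p = 2.38e-31), 2.23-fold in K1030R cells (adjusted p = 1.62e-24), 2.42-fold in ∆CT cells (adjusted p = 5.49e-26), and 0.887-fold in JMO cells (log2 fold change -0.17 ± 0.0346 (SE), adjusted p = 0.000158). The cartilage genes Acan and Col9a1 were at 0 in all 26 libraries and Matn1 was at 0 in 25. The summed level of the 7 chondrocyte markers, nearly all of it Sox9 (16.7 to 30.03 CPM over all libraries), was 28.4 to 31.99 CPM in DKO, 19.2 to 22.4 in IR, 26.3 to 29.6 in K1030R, 22.4 to 25.02 in ∆CT, and 23.2 to 25.2 in JMO cells, an order that Col11a1 did not share.

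Col11a2 (chr17:34039437-34066685, plus strand), the gene for the α2 chain of type XI, was higher in IR than in DKO cells in the basal state, and the other basal lines did not pass the test. It read 4.83 to 5.27 CPM in DKO cells, 9.19 to 10.6 for IR cells, 4.71 to 5.99 for K1030R cells, 4.5 to 6.64 for ∆CT cells, and 5.66 to 6.1 for JMO cells. The IR libraries stood above all others. The log2 fold change over DKO was 0.97 ± 0.121 (SE) for IR cells (adjusted p = 2.3e-08), 0.11 for K1030R cells (95% interval -0.16 to 0.38), 0.20 for ∆CT cells (-0.06 to 0.46), and 0.23 for JMO cells (-0.03 to 0.49), with adjusted p-values of 0.56, 0.218, and 0.182 for the last 3 lines. Without replicate 2 of the ∆CT cells, whose 4.5 CPM was the lowest value of that group, the ∆CT log2 value was 0.36 and passed the test. With the insulin-stimulated libraries of the receptor lines against basal DKO libraries, the log2 values were 0.54 for K1030R (adjusted p = 0.000641), 0.67 for ∆CT (adjusted p = 0.00013), and 0.39 for JMO cells (adjusted p = 0.0148), all past the threshold. DKO cells had no insulin group, so in this comparison a difference between lines cannot be told apart from an effect of insulin.

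Col2a1 (chr15:97975602-98004695, minus strand), the gene for cartilage type II collagen, was close to the detection limit. It read 0.217 to 0.284 CPM in DKO cells, which is 4 to 6 counts per library, and 0.445 to 1.19 CPM in the basal libraries of the 4 receptor lines. All basal receptor libraries were above the DKO libraries, and the receptor lines overlapped with each other. Because no DKO library reached the 0.5 CPM of the filter, Col2a1 was tested only through the receptor lines in which it was higher. Its fitted log2 differences from DKO, 1.39 ± 0.38 (SE) for IR, 1.84 ± 0.366 for K1030R, 1.84 ± 0.362 for ∆CT, and 1.87 ± 0.358 for JMO cells, are therefore given as a description with no test.

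Col27a1 (chr4:63214004-63334991, plus strand), which encodes a fibrillar collagen of cartilage and many other tissues and holds the gene of miR-455 in an intron, read 9.59 to 12.2 CPM in DKO cells, 17.8 to 20.8 for IR cells, 16.3 to 17.9 for K1030R cells, 15.4 to 18.8 for ∆CT cells, and 12.6 to 15.9 for JMO cells. All receptor lines lay above DKO cells, and only JMO among them was separated from IR. The log2 fold change was 0.84 ± 0.104 (SE) for IR cells (adjusted p = 6.06e-08), 0.65 for K1030R cells (adjusted p = 1.1e-05), 0.62 for ∆CT cells (adjusted p = 1.61e-05), and 0.41 for JMO cells (adjusted p = 0.00317).

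**Figure D1:**
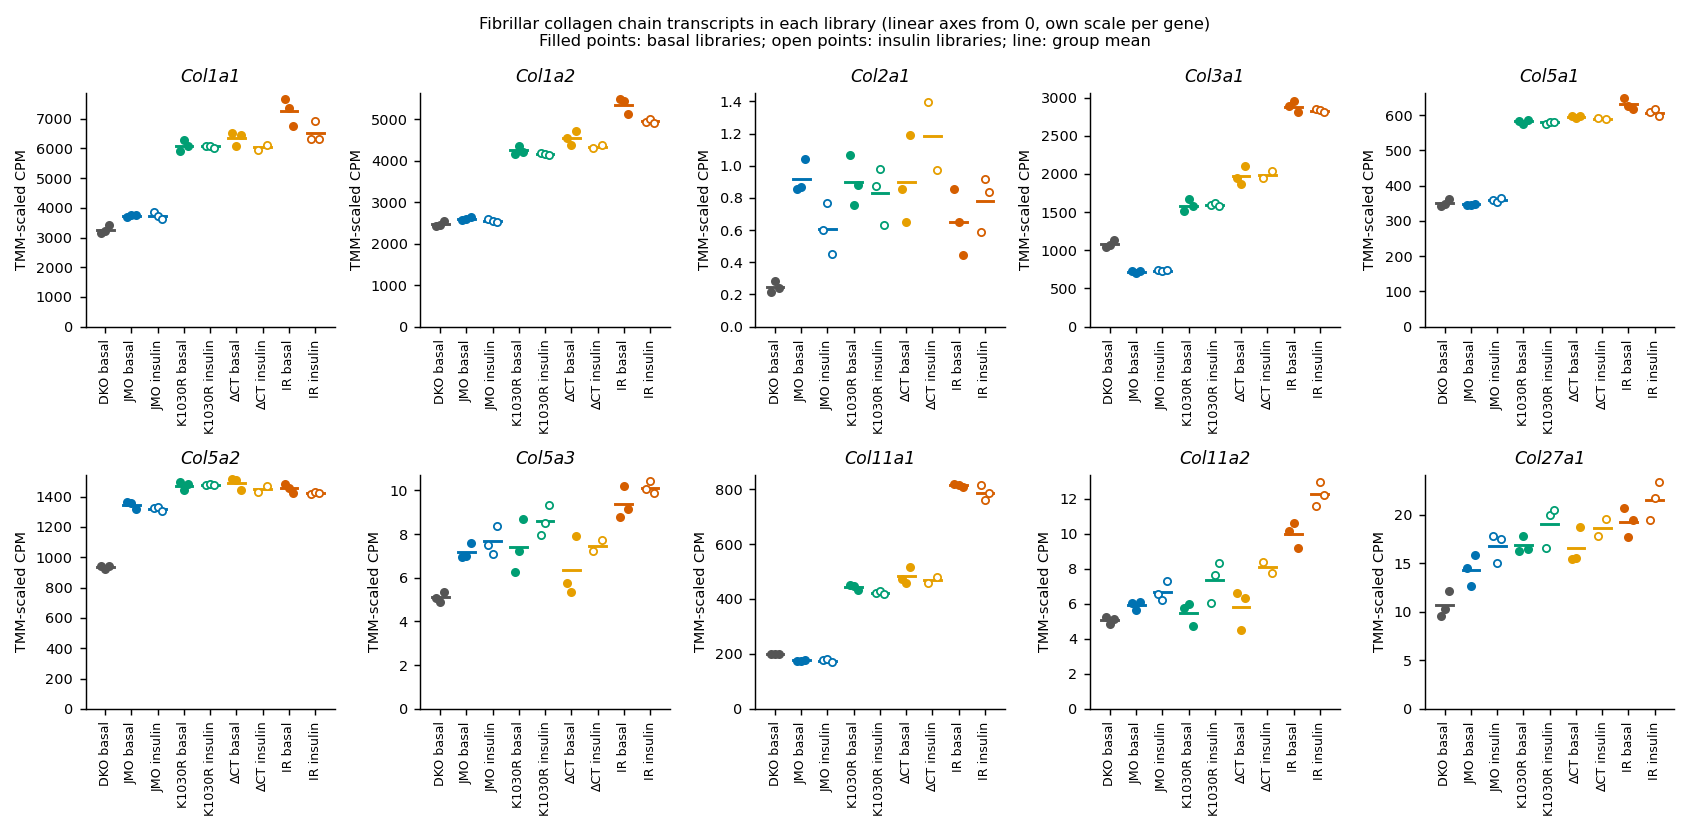
Level of each fibrillar collagen chain transcript in every library, as TMM-scaled CPM on a linear axis that starts at 0 and has its own scale for each gene; filled points are basal libraries, open points insulin-stimulated libraries, and lines the group means. For Col1a1, IR libraries lie at 6327 to 7653 CPM and JMO libraries near the DKO values of 3161 to 3420 CPM, while for Col5a2 JMO libraries lie close to the other receptor lines.

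Leaving out Col2a1 for that reason, each of the other 9 members passed the filter in every library. All 9 were higher in IR than in DKO cells at an adjusted p below 0.05, against 25.6% of the 15402 genes tested, and 8 were higher when the test required a change of more than 1.5-fold (edgeR glmTreat), against 3.59% of genes. In K1030R cells 8 of the 9 were higher (21.2% of genes) and 5 past the minimum fold (2.04%). In ∆CT cells 8 were higher (23.4% of genes) and 6 past the minimum fold (2.38%). In JMO cells 5 were higher (16.8% of genes) and 2, Col3a1 and Col11a1, were lower (17.4%), while 0 passed the minimum fold in edgeR, DESeq2, or limma, nor in edgeR at an unadjusted p below 0.05 (1.38% of genes higher). The median log2 fold change of the 9 members was 0.97 for IR, 0.66 for K1030R, 0.76 for ∆CT, and 0.19 for JMO cells, whereas the median of all genes tested lay between 0.0074 and 0.0138 in the same comparisons. These 4 comparisons share the DKO libraries, so they are not independent of each other. In DESeq2, 5 members passed the minimum fold in IR cells.

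The comparison with JMO cells, which carry the extracellular and transmembrane parts of the receptor, asks which differences go with the intracellular domains. In the basal state 9 members were higher in IR than in JMO cells (21.8% of genes), 6 for K1030R cells (18.0%), and 6 for ∆CT cells (19.3%). Past the minimum fold there were 5 members in each of the 3 lines, namely Col1a1, Col1a2, Col3a1, Col5a1, and Col11a1, against 1.94%, 0.851%, and 1.08% of genes. Col3a1 had a log2 difference from JMO of 2.0 ± 0.037 (SE) for IR, 1.14 ± 0.0362 for K1030R, and 1.45 ± 0.0365 for ∆CT cells. For Col11a1 the corresponding values were 2.2 ± 0.035, 1.33 ± 0.0345, and 1.45 ± 0.0345. The type I chains differed by 0.96 (Col1a1) and 1.04 (Col1a2) for IR cells, and by 0.71 (Col1a1 and Col1a2) for K1030R cells. Col5a2, by contrast, differed from JMO by 0.11 for IR, 0.13 for K1030R, and 0.14 for ∆CT cells, small steps that passed the adjusted p and not the minimum fold.

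In the insulin-stimulated libraries the same comparison gave 6 members past the minimum fold in IR (2.05% of genes), 5 for K1030R (0.857%), and 4 for ∆CT cells (1.10%). The log2 difference from JMO was 1.95 for IR, 1.12 for K1030R, and 1.44 for ∆CT cells for Col3a1. For Col11a1 it was 2.16, 1.26, and 1.42. In ∆CT cells Col1a1 fell just short of the minimum fold test there (log2 difference 0.69, adjusted p of the minimum fold test 0.0643, with 2 ∆CT libraries). When libraries were scaled by their totals alone, 2 instead of 5 members passed in K1030R cells.

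The members higher in IR, K1030R, and ∆CT cells than in both DKO and JMO cells in all 6 basal comparisons numbered 4 past the minimum fold (Col1a1, Col1a2, Col5a1, and Col11a1), against 53 genes or 0.344% of those tested. At the adjusted p alone they numbered 6, with Col3a1 and Col5a2 in addition, against 1007 genes or 6.54%. Col3a1 missed the first group because its 1.46-fold difference between K1030R and DKO cells was under the minimum fold. Col5a2 missed it because JMO cells were nearly as high as the others. Its difference between IR and DKO cells also fell short (log2 fold change 0.64, adjusted p of the minimum fold test 0.0903).

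**Figure D2:**
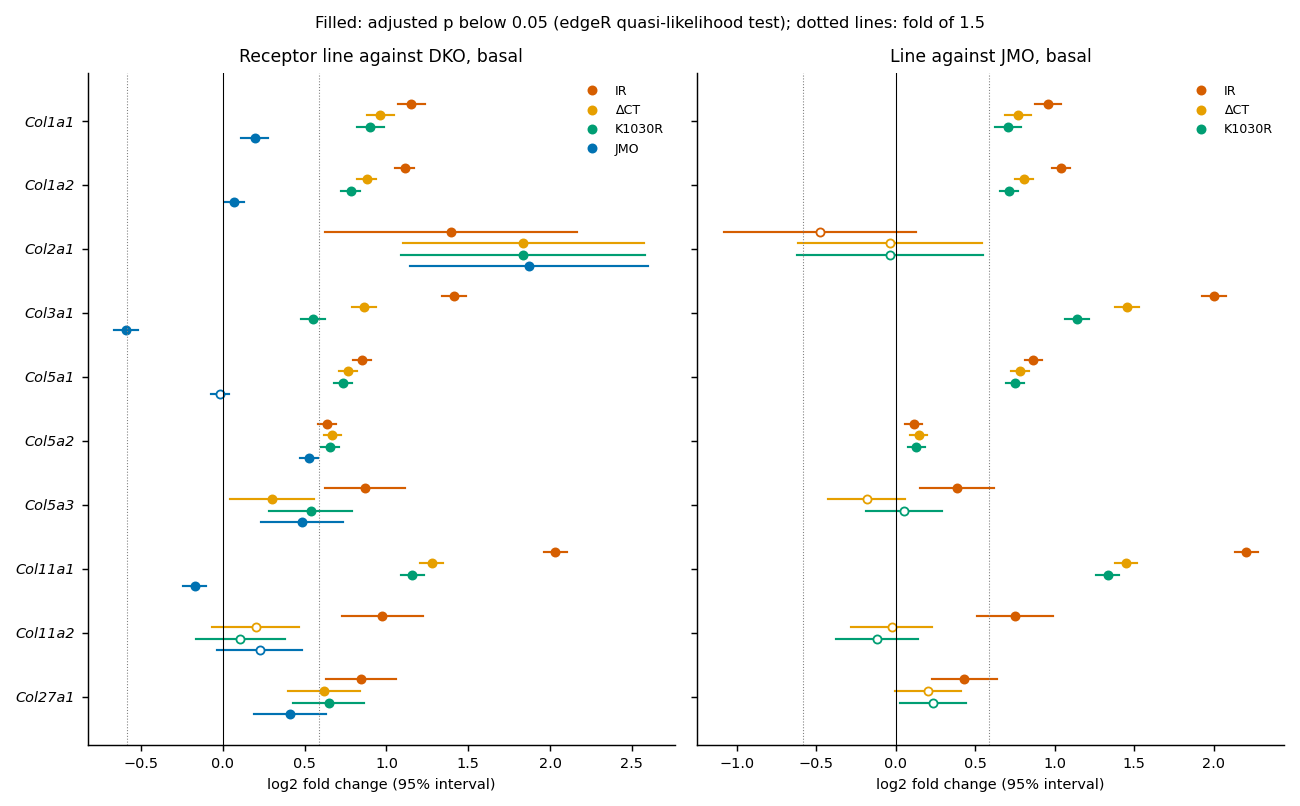
Log2 fold change of each member in the basal state against DKO cells (left) and against JMO cells (right), with 95% intervals; filled points passed an adjusted p below 0.05, and dotted lines mark a fold of 1.5, with the caution that Col2a1 passed the filter only through the receptor lines. Col3a1 and Col11a1 spread widest across the lines, from -0.59 to 1.41 and from -0.17 to 2.03 against DKO, while the Col5a2 values of all 4 lines lie between 0.53 and 0.67.

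IR, K1030R, and ∆CT cells also differed from each other. In K1030R relative to IR cells 7 members were lower (16.3% of genes), 2 of them past the minimum fold (0.857%). These were Col3a1 (log2 difference -0.86 ± 0.0359 (SE), adjusted p = 8.57e-19) and Col11a1 (-0.87 ± 0.0335, adjusted p = 1.26e-19). In ∆CT relative to IR cells 7 members were lower (14.8% of genes), with Col11a1 past the minimum fold (-0.76 ± 0.0333, 0.675% of genes) and Col3a1 at -0.55 ± 0.0357. Col11a2 was lower as well, by log2 differences of -0.87 ± 0.121 for K1030R and -0.77 ± 0.118 for ∆CT cells, on fewer counts. Col5a2 did not pass the test in K1030R (0.02, 95% interval -0.03 to 0.07) or in ∆CT cells (0.03, -0.02 to 0.09). The type I chains and Col5a1 had smaller steps, from -0.33 for Col1a2 for K1030R to -0.08 for Col5a1 for ∆CT cells. That Col5a1 call was lost in 5 of 36 alternative settings (adjusted p up to 0.288), as was the Col5a3 call between K1030R and IR cells (-0.33, adjusted p up to 0.181).

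Between ∆CT and K1030R cells 3 members were higher in ∆CT cells (1.49% of genes) and 0 passed the minimum fold in edgeR, in DESeq2, or in limma at an adjusted p below 0.05, nor did any at an unadjusted p below 0.05 in edgeR. Col3a1 was 1.24-fold higher (log2 difference 0.31 ± 0.0357 (SE), adjusted p = 3.05e-07). Col11a1 differed by 0.12 (adjusted p = 0.0401) and Col1a2 by 0.10 (adjusted p = 0.0398), and these calls were lost in 10 and 9 of 36 alternative settings, where the adjusted p ran up to 0.279 and 0.247. Col3a1 was thus the member whose IR, ∆CT, K1030R, DKO, and JMO levels were each separated from the next in that order in the test and without overlap of libraries, and Col11a1 followed the same order with a less certain step between ∆CT and K1030R cells.

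Ratios of chain transcripts within a library were formed from CPM per kb of the longest coding transcript and are given as a description without a test. Their absolute size depends on the length used: with merged exons, Col1a1 to Col1a2 was 2.46 to 2.55 in DKO and 2.5 to 2.64 in IR libraries, and Col3a1 to Col1a1 was 0.221 to 0.222 in DKO libraries, while a change of length moves all libraries by the same factor. The type I ratio, Col1a1 to Col1a2, was 1.19 ± 0.0224 (SD, n = 3) for DKO, 1.22 ± 0.0348 for IR, 1.29 ± 0.0145 for K1030R, 1.26 ± 0.0304 for ∆CT, and 1.3 ± 0.011 for JMO cells, so it moved little while both chains were 2.22-fold (Col1a1) and 2.16-fold (Col1a2) as high in IR than in DKO cells. The ratio of Col3a1 to Col1a1 was 0.424 ± 0.0208 for IR, 0.353 ± 0.000854 for DKO, 0.33 ± 0.0153 for ∆CT, 0.277 ± 0.00527 for K1030R, and 0.205 ± 0.00441 for JMO cells. The share of type III relative to type I transcript was thus highest in IR and lowest in JMO cells among these 5 lines, whose libraries did not overlap.

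For type V, Col5a1 to Col5a2 was 0.295 ± 0.00819 for DKO, 0.342 ± 0.00261 for IR, 0.311 ± 0.00301 for K1030R, 0.315 ± 0.00974 for ∆CT, and 0.203 ± 0.0046 for JMO cells. JMO cells stood apart with the lowest value. Col5a3 was a minor transcript in every line, at 0.0146 to 0.0284 of Col5a1 in the group means.

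A pair of ratios was chosen after the values were seen. Col11a1 to Col5a1 was 0.623 ± 0.0141 for DKO, 1.41 ± 0.0246 for IR, 0.837 ± 0.0255 for K1030R, 0.888 ± 0.0496 for ∆CT, and 0.559 ± 0.00391 for JMO cells. IR cells were the line in which the Col11a1 level per kb exceeded that of Col5a1, but with the length of all merged exons the IR ratio was 0.842 to 0.869, so the side of 1 depends on the length used whereas the order of the lines does not. Col5a2 to Col3a1 was 0.727 ± 0.03 for DKO, 0.424 ± 0.00842 for IR, 0.782 ± 0.0528 for K1030R, 0.637 ± 0.0537 for ∆CT, and 1.57 ± 0.0525 for JMO cells. JMO cells were therefore the line with more Col5a2 than Col3a1 per kb, also with merged exons (1.85 to 1.97), where 1 K1030R library reached 1.01.

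As shares of the family's summed level per kb, Col1a1 made up 38.8% in DKO and 41.5% in JMO cells, and Col1a2 made up 31.8% to 32.6% across the 5 basal lines. Col3a1 contributed 16.5% in IR but 8.53% in JMO cells. Col5a2 contributed 6.99% in IR and 13.4% in JMO cells. Col11a1 rose from 1.83% in DKO to 3.38% in IR cells. Col5a3, Col11a2, Col27a1, and Col2a1 each made up at most 0.124% of the family in any basal line. The summed level itself was 1420 ± 43.8 CPM per kb (SD, n = 3) for DKO, 3147 ± 132 for IR, 2463 ± 59.3 for K1030R, 2640 ± 84.1 for ∆CT, and 1517 ± 7.0 for JMO cells.

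**Figure D3:**
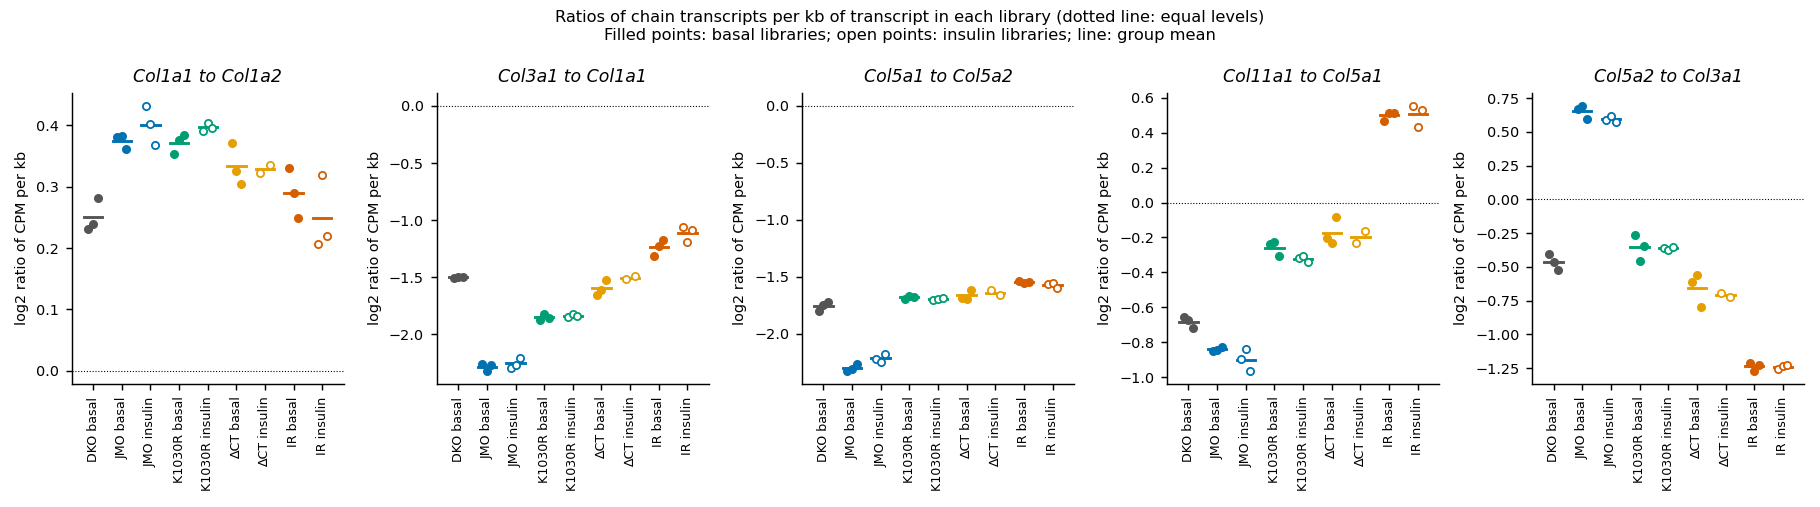
Log2 ratio of pairs of chain transcripts per kb in every library; filled points are basal libraries, open points insulin-stimulated libraries, lines the group means, and the dotted line equal levels. The Col1a1 to Col1a2 ratios lie within a narrow band (1.15 to 1.35 on the linear scale), whereas Col5a2 to Col3a1 separates JMO from IR cells.

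Stimulation with insulin for 15 min moved the members little. In IR cells 2 members were lower after insulin at an adjusted p below 0.05, against 0.474% of genes. Col1a2 read 4943, 5007, and 4904 CPM with insulin (log2 fold change -0.11 ± 0.0277 (SE), adjusted p = 0.0276). Col1a1 read 6327, 6924, and 6335 CPM (-0.15 ± 0.0397, adjusted p = 0.0436), overlapped with its basal libraries, and lost the call in 19 of 36 alternative settings, where the adjusted p ran up to 0.33. The Col1a2 libraries did not overlap, and its call was lost in 6 of 36 settings. In K1030R, ∆CT, and JMO cells 0 members passed the adjusted p in edgeR, DESeq2, or limma, against 0.156%, 1.01%, and 0.364% of genes in either direction, while 2, 2, and 1 members had an unadjusted p below 0.05. No share of all genes is given for the unadjusted counts. In none of the 4 lines did a member pass the minimum fold by any of these tools, at an adjusted p below 0.05, and in edgeR 0 did so at an unadjusted p below 0.05. For the 6 abundant members the 24 insulin effects ranged from -0.15 to 0.05 on the log2 scale, with 95% intervals between -0.23 and 0.11.

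Col11a2 was the member whose insulin-stimulated libraries all lay above the basal libraries in each of the 4 lines, without passing the test in any. It was singled out among the members by this pattern, and the share of all genes that separated in this way was not taken. The gap was thin in K1030R (6.07 CPM with insulin against 5.99 basal) and in JMO cells (6.23 against 6.095). With insulin it read 11.6, 12.9, and 12.2 CPM in IR, 6.07, 7.67, and 8.34 for K1030R, 8.42 and 7.76 for ∆CT, and 6.54, 6.23, and 7.31 for JMO cells. The log2 fold changes were 0.30 ± 0.108 (SE) for IR, 0.43 ± 0.125 for K1030R, 0.47 ± 0.134 for ∆CT, and 0.17 ± 0.124 for JMO cells, with adjusted p-values of 0.164, 0.292, 0.107, and 0.878. The ∆CT value passed the test in 2 of 36 alternative settings, where the adjusted p ran down to 0.0308. These include the fit without replicate 1 of the basal ∆CT cells (0.58, adjusted p = 0.0482).

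The insulin effect was also compared between lines. Of the interaction contrasts of K1030R with IR, ∆CT with IR, JMO with IR, and JMO with K1030R, 0 members passed the adjusted p in edgeR or DESeq2, while 1, 0, 3, and 0 members had an unadjusted p below 0.05. The shares of all genes tested are not given for these contrasts, so the counts cannot be read against a general rate. Among the abundant members Col1a1 had the largest of these differences, 0.15 ± 0.0562 (SE) for JMO minus IR (adjusted p = 0.62) and 0.15 ± 0.0561 for K1030R minus IR (adjusted p = 0.523). Without replicate 3 of the basal IR cells, 1 member passed in the K1030R and IR contrast.

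**Figure D4:**
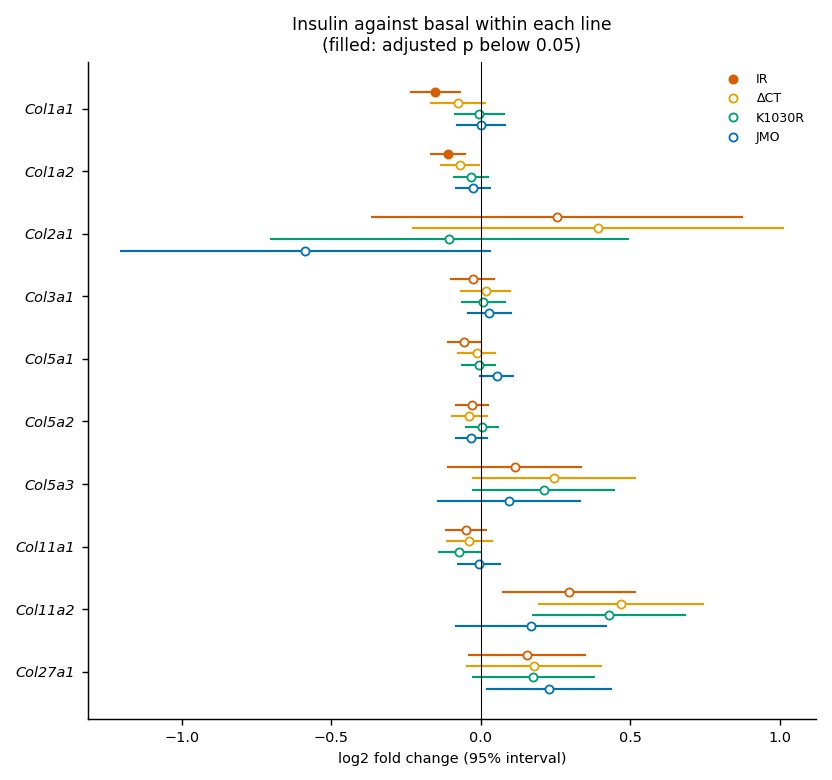
Log2 fold change of each member after insulin against basal within each line, with 95% intervals; filled points passed an adjusted p below 0.05. The abundant members lie between -0.15 and 0.05, and the wide intervals belong to Col2a1 and the other members with low counts.

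The rest of the fibrillar collagen pathway was described by 8 lists with 97 genes. Of the 18 tested genes for folding and hydroxylation of procollagen in the endoplasmic reticulum, 12 were higher and 0 lower than in DKO at an adjusted p below 0.05 for IR cells, 11 higher and 1 lower in K1030R, 12 higher and 0 lower in ∆CT, and 5 higher and 1 lower in JMO cells. Among all genes, 25.6% were higher and 24.1% lower in IR cells, 21.2% and 20.4% in K1030R, 23.4% and 22.9% in ∆CT, and 16.8% and 17.4% in JMO cells, and the counts of the lists are to be read against these shares. Their median log2 fold change was 0.23 for IR, 0.16 for K1030R, 0.24 for ∆CT, and 0.08 for JMO cells, well below that of the collagen chains. Serpinh1, the collagen-specific chaperone HSP47 and chosen here after its value was seen, had a log2 fold change over DKO of 0.73 ± 0.0389 for IR, 0.65 ± 0.039 for K1030R, 0.73 ± 0.039 for ∆CT, and 0.27 ± 0.0389 for JMO cells.

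Of the 6 secretion genes tested, 4 were higher and 1 lower than in DKO in IR and in ∆CT cells, 3 and 1 in K1030R, and 1 and 3 in JMO cells. The 5 cross-linking enzymes (lysyl oxidases) were divided, with 2 higher and 2 lower in each of IR, K1030R, and ∆CT cells and 1 higher and 3 lower in JMO cells. Of the 13 tested fibril surface and assembly partners, such as small leucine-rich proteoglycans, 9 were higher and 3 lower in IR, 5 and 5 in K1030R, 6 and 6 in ∆CT, and 4 and 3 in JMO cells. Of the 26 tested regulators of fibrillar collagen transcription, 7 were higher and 10 lower in IR, 8 and 12 for K1030R, 8 and 13 for ∆CT, and 4 and 10 for JMO cells. Of the 6 receptors and uptake genes tested, 5 were higher and 0 lower in IR, 4 and 0 in K1030R, 3 and 0 in ∆CT, and 3 and 2 in JMO cells.

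The propeptide cleavage list had 3 of 6 genes higher and 2 lower in IR and JMO cells and 3 higher and 3 lower in K1030R and ∆CT cells. The degradation list had 3 of 6 genes higher and 2 lower in IR cells (median log2 fold change 0.17), but 1 higher and 4 lower in each of K1030R (-0.87), ∆CT (-0.62), and JMO cells (-0.54). These counts and medians include Mmp8, which was among the lower genes in IR, K1030R, and ∆CT cells and is given no test below. Of the listed genes, Pcolce2 and Mmp8 alone were called past the minimum fold in the same direction in all 6 basal comparisons with DKO and JMO cells. Both were lower in IR, K1030R, and ∆CT cells. Among all 15402 genes tested, 181 were lower and 53 higher by this rule, so lower calls were also the more common ones in general. Pcolce2, an enhancer of procollagen C-propeptide cleavage, stood at 25.4 ± 1.12 CPM (SD, n = 3) for DKO, 6.92 ± 0.939 for IR, 12.2 ± 0.427 for K1030R, 10.6 ± 0.625 for ∆CT, and 28.3 ± 1.12 for JMO cells. The order of its mean levels was the reverse of that of Col3a1. The step between DKO and JMO cells did not pass the test (adjusted p = 0.0555), nor did the step between ∆CT and K1030R cells. Mmp8, a collagenase, stood at 0.163 to 0.682 CPM in DKO and 0.714 to 0.942 for JMO cells and at 0 to 0.0949 CPM in the basal libraries of the other lines, so it was near the detection limit throughout and passed the filter only through DKO and JMO libraries. Its call therefore rests on the lines in which it was high, and its levels are given as a description with no test.

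Markers of other cell types were set beside these results. The summed level of the 8 mesenchymal and preadipocyte markers (6 of them above the filter) was 2323 to 2359 CPM in DKO, 2576 to 2779 over IR, K1030R, and ∆CT, and 2017 to 2106 in basal JMO cells, so it was higher in the lines with more type I and III transcript and lowest in JMO cells, as was Col3a1. Vim (1167 to 1894 CPM over all libraries), Pdgfrb (533 to 639), and Pdgfra (158 to 293) made up nearly all of that sum, so it does not show how the other markers moved. The 4 tenocyte markers summed to 33.6 to 38.3 CPM in JMO and 17.8 to 26.5 CPM over the other basal groups. Nearly all of this came from Mkx (6.79 to 18.4 CPM over all libraries), Fmod (3.07 to 14.6), and Scx (4.54 to 8.84). These markers did not move together. Relative to DKO, Fmod had log2 fold changes of 0.52 in IR and 0.69 in K1030R cells, against 0.23 and -0.33 for Scx. The 4 myofibroblast markers, mostly Acta2, summed to 698 to 724 CPM in JMO, 669 to 708 for K1030R, 557 to 575 for DKO, 444 to 506 for IR, and 384 to 388 for ∆CT cells, which is not the order of any abundant member. In the basal groups, osteoblast markers summed to 51.3 to 68.2 CPM. Nearly all of that was Runx2 (51.02 to 67.2 CPM over all libraries), and Ibsp was at 0 in 24 libraries. Leukocyte markers summed to at most 4.66 CPM, mostly Cd68 (1.54 to 3.65 over all libraries), with Adgre1 at 0 in all 26. Skeletal muscle markers summed to at most 4.64 CPM, mostly Des (1.76 to 4.75 over all libraries), with Myf5 and Myod1 at 0 in all 26. Endothelial markers summed to at most 15.2 CPM, nearly all Pecam1 (6.83 to 17.3 over all libraries). Mature adipocyte markers, 1 of 6 above the filter (Fabp4), summed to 4.3 to 4.88 CPM in JMO, 2.5 to 2.6 in DKO, 0.831 to 2.02 in K1030R, 0.936 to 1.05 in ∆CT, and 0.601 to 1.09 in IR cells, so they were highest in the lines with the least type I and III transcript. The part of these markers in the collagen differences was not tested, and in bulk RNA fewer cells with a transcript and less transcript per cell cannot be told apart.

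Likeness of pattern was measured by Pearson's r between the mean log2 CPM of a member and of every other gene over the 9 groups, which share their DKO parent line and normalization. Within the family, r was 0.991 for Col1a1 with Col1a2, 0.987 for Col1a1 with Col5a1, and 0.981 for Col3a1 with Col11a1, but 0.455 for the chromosomal neighbors Col3a1 and Col5a2. Outside the family, the nearest gene was Myh10 for Col1a1 (r = 0.995), Bcat2 for Col1a2 (0.996), Tanc1 for Col3a1 (0.997), Tnmd for Col5a1 (0.996), Sufu for Col5a2 (0.991), and Plcg1 for Col11a1 (0.998). For the low members it was Tbc1d23 for Col2a1 (0.955), Atp2a3 for Col5a3 (0.97), Gpr137b-ps for Col11a2 (0.982), and Dusp10 for Col27a1 (0.99). Tnmd, also in the tenocyte list, was at 0 in 4 libraries and reached 1.42 CPM at most. With 15402 genes and 9 groups such values are descriptions of shape only.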

How the data were processed

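RNA-seq was performed on 26 libraries in 9 groups, and the authors trimmed reads with fastp, estimated transcript abundance with kallisto, and summed it to genes. The deposited values are expected counts per gene, which the authors had not normalized. They were rounded to whole numbers, genes above 0.5 CPM in at least 4 libraries were kept (15402 of 52962), and library sizes were scaled with TMM in edgeR 4.0.16 (R 4.3.3). A quasi-likelihood model with 1 mean per group over all 26 libraries gave log2 fold changes, and glmTreat tested for a change beyond 1.5-fold; p-values were adjusted by Benjamini-Hochberg over all genes tested. DESeq2 1.42.0 and limma 3.58.1 served as alternatives. Scripts were tested on simulated data. Replicate numbers did not pair libraries (median r of deviations 0.000536 over 100 same-number pairs), and no pair of replicates agreed within sampling noise (chi-square per degree of freedom 2.93 to 23.7). Expected counts of Col1a2 and Col27a1 were whole in 0% of libraries, and those of Col5a1 in 19.2%. Totals of 17228982 to 24694828 counts limit precision for Col2a1 most. From the pathway lists, the named genes were to be the 2 with the largest change in each list among those past the minimum fold in the same direction in all 6 basal comparisons, and for likeness the nearest of the 3 genes ranked by r is given. The members and lists were chosen with earlier results of these data known.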

Additional observations from a re-analysis of the deposited data

How the results depend on the processing

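The counts of members past the minimum fold (Col2a1 included, which alone made the count of 1 for JMO against DKO) changed by over 1.5 times under these settings. DESeq2 gave 5 members instead of 8 for IR and 0 instead of 1 for JMO against DKO. For JMO against DKO, limma voom with treat and the insulin libraries of the receptor lines also gave 0. Without a minimum fold the counts were 8 for JMO against DKO, 9 for IR against basal JMO, 7 for ∆CT against JMO with insulin, 7 for K1030R and 7 for ∆CT against IR, 3 for ∆CT against K1030R, and 2 for insulin in IR cells. Scaling by library totals only gave 2 members for K1030R against JMO with insulin, and a fit of only the 2 groups compared gave 0 for ∆CT against IR. With 1 library left out, the counts ranged from 6 to 8 for IR and from 5 to 6 for K1030R against DKO, and from 0 to 1 for the insulin effect of K1030R against IR. With the replicate block the counts, Col2a1 included, were unchanged, at 8 for IR, 6 for K1030R, 7 for ∆CT, and 1 for JMO against DKO. Col2a1 was given no test against DKO. Without it, the counts of the main fit were 8 for IR, 5 for K1030R, 6 for ∆CT, and 0 for JMO cells. Without Col2a1 and without a minimum fold, 5 members were higher and 2 lower in JMO than in DKO cells.

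The Col5a1 difference between JMO and DKO cells changed sign to 0.0367 with the insulin libraries, and with 1 library left out it ranged from -0.0309 to 0.00757, the latter without replicate 3 of the DKO cells. With insulin libraries in place of basal ones, the log2 ratio difference from DKO was -0.0018 for Col1a1 to Col1a2 in IR, -0.46 for Col5a1 to Col5a2 in JMO, 0.20 (IR) and 0.0253 (K1030R) for Col5a3 to Col5a1, 0.39 (IR) and -0.0068 (∆CT) for Col3a1 to Col1a1, and -0.21 (IR), -0.14 (∆CT), and -0.16 (JMO) for Col5a1 to Col1a1. The cause was not tested. Of 1740 member values under settings that changed 1 choice, 1679 kept their direction and their side of the threshold, 32 lost a call, 11 gained one, and 18 changed sign. Of 4420 with 1 library left out, 4308 kept both. None of the 23 values that changed sign anywhere had passed the threshold. Low counts limit Col2a1, Col5a3, Col11a2, and Col27a1.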
